A study of Mus musculus with 18 samples.

Results

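Regulatory T cells (Treg) from mice with a floxed HDAC1 allele were compared directly with Treg from mice with a floxed HDAC2 allele. The 6 libraries carrying these labels, 3 per group, were taken out of the 18 libraries of the series, and the wild-type libraries took no part in the comparison. In both groups the floxed allele was combined with Foxp3YFPcre, which makes the cre recombinase and a yellow fluorescent protein (YFP) under the control of Foxp3, so that deletion is directed to Foxp3+ cells. The mice were males aged 6 to 8 weeks, and CD4+ cells from a column were sorted by YFP before RNA was isolated. Wild-type mice carried Foxp3YFPcre without a floxed allele, and their values are given below for orientation only. The labels describe the 3 replicates of a group as biological and independent. The growth text of every sample also speaks of mice lacking Rcor1, which does not match the group labels, so the groups are called here by their labels. Of 35275 gene identifiers in the table, 11653 reached 1 FPKM (fragments scaled by gene length and library depth) in at least 3 of the 6 libraries and were tested.

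HDAC1 and HDAC2 are closely related class I histone deacetylases, enzymes that remove acetyl groups from histones and other proteins. They occur side by side in the Sin3, NuRD and CoREST complexes, which are recruited to chromatin by transcription factors and mostly limit transcription. Treg depend on the transcription factor Foxp3 to restrain other immune cells, and Foxp3 itself acts with deacetylase complexes. The comparison asks how the RNA of Treg differs according to which of the paralogs was targeted.

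Depth, recovered from the steps between the lowest values, was 18.26 to 21.28 M reads in the HDAC1-labelled and 21.64 to 24.09 M in the HDAC2-labelled libraries, so the groups did not overlap in depth. Spearman correlations between libraries over the genes tested were 0.981 to 0.991 within groups and 0.975 to 0.987 between them. Treg markers were present throughout: Foxp3 was at 84.6, 82.5 and 99.3 FPKM in HDAC1-labelled replicates 1 to 3 and at 115, 87.1 and 98.0 FPKM in HDAC2-labelled replicates 1 to 3. Markers of other cells were also read. Jchain, the joining chain of secreted immunoglobulin and a plasma cell marker, was at 437, 1229 and 489 FPKM in the HDAC1-labelled and at 571, 1935 and 778 FPKM in the HDAC2-labelled libraries. Replicate 2 was highest in both groups. In bulk RNA, fewer cells of a type and less RNA per cell cannot be told apart.

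The targeted genes were examined first, because they check the labels. Hdac1 (ENSMUSG00000028800, chr4:129516104-129542713, minus strand, build mm10) was at 27.8, 36.5 and 31.6 FPKM in the HDAC1-labelled libraries and at 110, 104 and 108 FPKM in the HDAC2-labelled libraries. The groups were far apart, with a log2 difference (HDAC1-labelled minus HDAC2-labelled, on the log2(FPKM + 1) scale used throughout) of -1.72 (SE 0.10, adjusted p 0.000804, limma). Wild-type libraries read Hdac1 at 117 to 122 FPKM.

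Hdac2 (ENSMUSG00000019777, chr10:36974544-37001889) was at 30.1, 27.5 and 31.4 FPKM in the HDAC1-labelled libraries and at 28.9, 27.7 and 27.1 FPKM in the HDAC2-labelled libraries. The groups overlapped, and the log2 difference was 0.08 (SE 0.06, adjusted p 0.545). Hdac2 RNA therefore did not check the HDAC2 label, and these libraries are called HDAC2-labelled throughout. The deposited value covers all exons of a gene together, so a loss limited to the floxed exons would not be seen separately in it.

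The other class I members did not pass the test. Hdac3, the catalytic subunit of the NCoR and SMRT complexes, was at 20.8, 21.2 and 21.1 FPKM in the HDAC1-labelled libraries and at 20.3, 19.4 and 18.8 FPKM in the HDAC2-labelled libraries (log2 difference 0.10, SE 0.05, adjusted p 0.341). Hdac8, which works outside these complexes, was at 5.29, 4.95 and 6.63 FPKM and at 6.08, 4.87 and 6.01 FPKM respectively (log2 difference -0.01, adjusted p 0.979). Hdac3 did not overlap between the groups and Hdac8 did.

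Hdac1 was also the only called gene among the 37 tested members of the class I HDAC complexes, beside 0.832% of all genes tested. The remaining 36 were not called, and the median difference of the list was 0.05, beside -0.00012 over all genes tested. Among the members, 9 lay wholly above in the HDAC1-labelled and 3 wholly above in the HDAC2-labelled libraries, beside 12.8% and 10.5% of all genes tested. Rbbp7, a histone-binding subunit shared by Sin3 and NuRD, was at 113, 103 and 113 FPKM in the HDAC1-labelled libraries and at 89.8, 91.6 and 92.5 FPKM in the HDAC2-labelled libraries (log2 difference 0.26, adjusted p 0.102). Its groups did not overlap, but the difference did not pass.

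**Figure D1:**
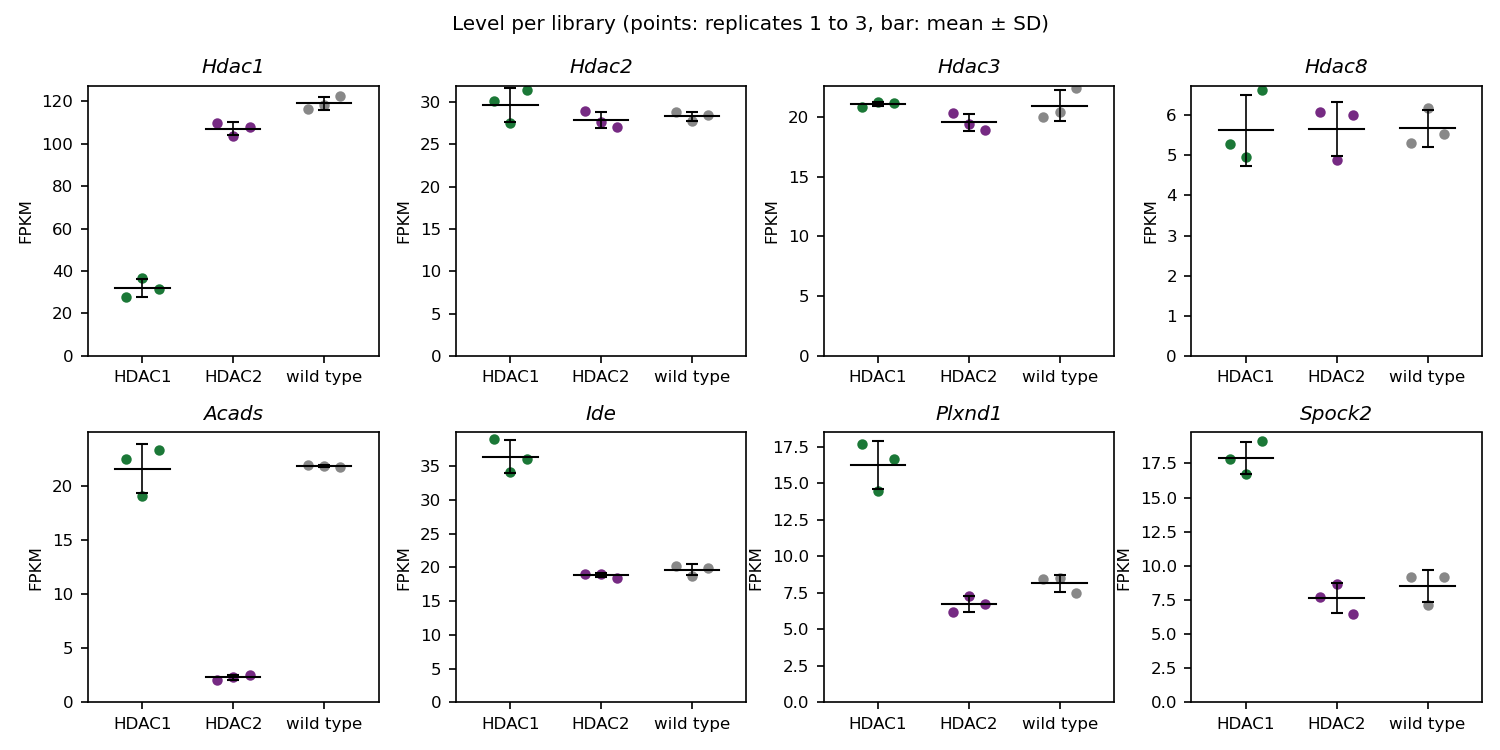
Levels in FPKM (vertical axes, from 0) of 8 genes in the HDAC1-labelled, HDAC2-labelled and wild-type libraries; points are replicates 1 to 3 and bars the mean and SD. Hdac1 is low in the HDAC1-labelled libraries and Acads in the HDAC2-labelled libraries, whereas Hdac2 lies between 27.1 and 31.4 FPKM in all 6.

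Across all genes, 97 of 11653 were called at an adjusted p under 0.05 (0.832%). Of these, 66 were higher in the HDAC1-labelled libraries (0.566% of the genes tested) and 31 in the HDAC2-labelled libraries (0.266%). The smallest called difference was 0.31, and 33 called genes passed 1 on the log2 scale in either direction. An unadjusted p under 0.05 was reached by 2018 genes (17.3%), and 50% of all genes tested had a difference above 0. The count depended on single libraries. It was 23 without HDAC1-labelled replicate 1, 25 without HDAC1-labelled replicate 3, 31 without HDAC2-labelled replicate 1 and 29 without HDAC2-labelled replicate 3. With the replicate number as a block it was 51, of which 36 were among the 97. A core of 21 genes was called without any 1 of the 6 libraries.

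**Figure D2:**
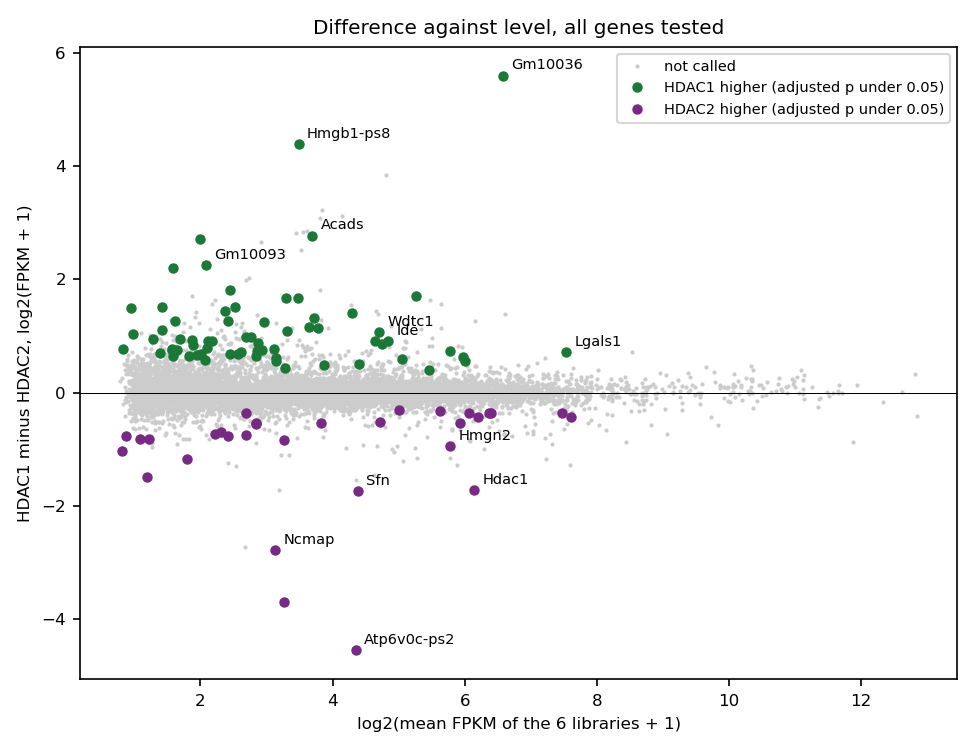
Difference between the groups (vertical axis, log2(FPKM + 1), HDAC1-labelled minus HDAC2-labelled) against the level of each gene (horizontal axis, log2 of the mean FPKM of the 6 libraries plus 1); green and purple points are the 66 and 31 genes called. Most genes lie near 0, and the points farthest from it include Gm10036 above, and Ncmap and Atp6v0c-ps2 below.

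Wild-type levels, which did not enter the test, were set beside both group means, and each called gene was placed with the nearer mean. Among the 66 genes higher in the HDAC1-labelled libraries, the wild-type mean lay nearer to the HDAC1-labelled mean for 32 and nearer to the HDAC2-labelled mean for 34. Among the 31 genes higher in the HDAC2-labelled libraries, it lay nearer to the HDAC1-labelled mean for 12 and nearer to the HDAC2-labelled mean for 19. Nearness does not show which group stood away from wild type, since both can differ from it. Tspoap1, for example, was at 2.40 to 3.50 FPKM in wild-type libraries, below every HDAC1-labelled and every HDAC2-labelled library.

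Called genes were frequent around the targeted loci. Within 5 Mb of the start of Hdac1 on chromosome 4, 10 of 123 genes tested were called (8.13%), and within 20 Mb 13 of 334 (3.89%), beside 0.742% of genes elsewhere. Hdac1 itself is among them. Of the 13, 3 were higher in the HDAC1-labelled and 10 in the HDAC2-labelled libraries. Sequence that flanks an engineered allele travels with it in breeding, and its part in these differences was not tested.

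The nearest of these genes lie close to Hdac1. Zbtb8a, a zinc finger gene 0.16 Mb before it (chr4:129353628-129378116), was at 0.212, 0.182 and 0.205 FPKM in the HDAC1-labelled libraries and at 2.58, 2.17 and 2.41 FPKM in the HDAC2-labelled libraries. Its groups did not overlap, with a log2 difference of -1.50 (SE 0.10, adjusted p 0.00161), and wild-type libraries read 1.75 to 2.06 FPKM. Zbtb8a reached 1 FPKM in no HDAC1-labelled library, so the filter fixed its direction. Dcdc2b, which encodes a doublecortin domain protein 0.09 Mb beyond the start of Hdac1, was at 1.23, 1.24 and 0.932 FPKM and at 4.53, 2.76 and 4.22 FPKM (log2 difference -1.16, adjusted p 0.0364). Its neighbour Ccdc28b, a coiled-coil gene, was at 5.93, 5.09 and 6.66 FPKM and at 12.02, 10.2 and 11.7 FPKM (log2 difference -0.84, adjusted p 0.0258). All 3 genes were lower in every HDAC1-labelled library than in any HDAC2-labelled library. The calls of Dcdc2b and Ccdc28b were lost without HDAC1-labelled replicate 1 or 3 or HDAC2-labelled replicate 1 or 3, and that of Dcdc2b also without HDAC1-labelled replicate 2, with adjusted p values of up to 0.16. With the replicate block, Dcdc2b had an adjusted p of 0.0744.

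Farther along chromosome 4 the differences went in both directions. Ncmap (chr4:135369576-135398227), which encodes a protein of noncompact myelin in glia, was at 1.42, 1.01 and 1.24 FPKM in the HDAC1-labelled libraries and at 16.0, 13.6 and 13.4 FPKM in the HDAC2-labelled libraries (log2 difference -2.78, SE 0.10, adjusted p 0.000102). Sfn (chr4:133600556-133602168), encoding the adaptor 14-3-3 sigma, was at 8.39, 9.44 and 8.08 FPKM and at 31.6, 29.5 and 31.9 FPKM (log2 difference -1.73, SE 0.07, adjusted p 0.000156). Hmgn2 (chr4:133964738-133968650), a nucleosome-binding protein, was at 37.1, 33.9 and 38.3 FPKM and at 65.4, 71.7 and 76.2 FPKM (log2 difference -0.95, SE 0.08, adjusted p 0.00386). All 3 were lower in every HDAC1-labelled library, and wild-type libraries, nearer to the HDAC2-labelled ones, read 11.8 to 13.3 FPKM for Ncmap, 28.9 to 30.8 FPKM for Sfn and 91.3 to 125 FPKM for Hmgn2. Called near copies of Hmgn2 elsewhere went the opposite way, as described below. Reads of Hmgn2 and of these copies cannot be told apart fully in these values.

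Between Hdac1 and Sfn lie the 3 genes of the window that were higher in the HDAC1-labelled libraries, Wdtc1, Sytl1 and the weakly read Smpdl3b (log2 difference of 0.71 for Smpdl3b, adjusted p 0.0408). Smpdl3b was called neither with the replicate block nor in any of the 6 fits with 1 library left out. Wdtc1 (chr4:133292459-133353481), a substrate adaptor of a cullin ubiquitin ligase, was at 35.2, 33.9 and 33.9 FPKM in the HDAC1-labelled libraries and at 16.2, 16.2 and 15.3 FPKM in the HDAC2-labelled libraries (log2 difference 1.06, SE 0.05, adjusted p 0.000243). Sytl1 (chr4:133253090-133263113), an effector of Rab27 in vesicle traffic, was at 29.4, 32.6 and 32.7 FPKM and at 15.3, 17.4 and 16.4 FPKM (log2 difference 0.90, SE 0.07, adjusted p 0.00318). Wild-type libraries lay at 15.7 to 16.0 FPKM for Wdtc1 and at 17.7 to 20.4 FPKM for Sytl1, near the HDAC2-labelled libraries. Zbtb8a, Ncmap, Sfn, Hmgn2, Wdtc1 and Sytl1 were each called without any 1 library and with the replicate block.

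A further pair on chromosome 4 differed less. Sh3bgrl3, a small glutaredoxin-like protein, was at 161, 166 and 168 FPKM in the HDAC1-labelled libraries and at 220, 214 and 236 FPKM in the HDAC2-labelled libraries (log2 difference -0.43, adjusted p 0.0335). Pnrc2, which takes part in mRNA decay, was at 57.4, 59.6 and 56.2 FPKM and at 75.4, 73.2 and 73.1 FPKM (log2 difference -0.35, adjusted p 0.0342). Neither gene overlapped between the groups. Without HDAC1-labelled replicate 1 or 3 or HDAC2-labelled replicate 1 or 3 both calls were lost, as was that of Sh3bgrl3 without HDAC1-labelled replicate 2 and that of Pnrc2 without HDAC2-labelled replicate 2, and with the replicate block the adjusted p was 0.0806 for Sh3bgrl3 and 0.0955 for Pnrc2.

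Around Hdac2 on chromosome 10, 2 of 31 genes tested within 5 Mb (6.45%) and 7 of 101 within 20 Mb (6.93%) were called, beside 0.779% elsewhere. Of the 7, 6 were higher in the HDAC1-labelled libraries. Hdac2 RNA showed no called difference. Of the 7 called genes around it, 2 lay within 5 Mb, against 10 of the 13 around Hdac1, which included Hdac1 itself. The others lay 14.6 to 16.8 Mb before the start of Hdac2, most of them close together, as given below. Amd2, a retrotransposed relative of the S-adenosylmethionine decarboxylase gene that starts 1.27 Mb before Hdac2, was at 0.223, 0.0881 and 0.149 FPKM in the HDAC1-labelled libraries and at 1.45, 1.50 and 1.15 FPKM in the HDAC2-labelled libraries (log2 difference -1.04, adjusted p 0.0205). Wild-type libraries read Amd2 at 0.076 to 0.152 FPKM. Amd2 reached 1 FPKM in no HDAC1-labelled library, so the filter fixed its direction. Cep57l1, a centrosomal protein gene 4.74 Mb beyond the start of Hdac2, was at 5.39, 5.61 and 6.27 FPKM and at 3.49, 3.02 and 3.10 FPKM (log2 difference 0.68, adjusted p 0.0242). Both calls were lost without HDAC1-labelled replicate 1 or 3 or any HDAC2-labelled replicate, with adjusted p values of up to 0.127, and with the replicate block the adjusted p was 0.067 for Amd2 and 0.0731 for Cep57l1.

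A group of 4 called genes lies close together on chromosome 10, between 22187013 and 22345792: Hmgb1-ps8, Gm26740, C920009B18Rik and Gm5421. Hmgb1-ps8 (chr10:22262742-22263367), annotated as a processed pseudogene of the chromatin protein gene Hmgb1, was at 18.1, 20.6 and 22.5 FPKM in the HDAC1-labelled libraries and at 0, 0 and 0.0663 FPKM in the HDAC2-labelled libraries. It was nearly absent from the HDAC2-labelled libraries, with a log2 difference of 4.38 (SE 0.09, adjusted p 1.15e-05), and wild-type libraries read 9.48 to 14.5 FPKM. The noncoding antisense gene Gm26740, whose span (chr10:22187013-22302835) contains Hmgb1-ps8, was at 16.5, 17.8 and 19.2 FPKM and at 7.05, 6.16 and 6.51 FPKM (log2 difference 1.31, SE 0.08, adjusted p 0.00081). Gm5421 (chr10:22343439-22345792), a processed pseudogene, was at 1.51, 2.08 and 1.93 FPKM and at 0.0184, 0 and 0 FPKM (log2 difference 1.49, SE 0.12, adjusted p 0.00386). Wild-type means lay nearer to the HDAC1-labelled libraries for these 3 genes, at 14.1 FPKM for Gm26740 and 1.35 FPKM for Gm5421. C920009B18Rik, annotated as a transcribed pseudogene, differed from them in this. It was at 8.21, 8.07 and 7.13 FPKM in the HDAC1-labelled and at 4.76, 4.31 and 4.72 FPKM in the HDAC2-labelled libraries (log2 difference 0.65, SE 0.07, adjusted p 0.0205), with a wild-type mean of 5.12 FPKM, nearer to the HDAC2-labelled libraries. Its groups did not overlap, and its call was lost with the replicate block and without HDAC1-labelled replicate 1 or HDAC2-labelled replicate 1 or 3. Hmgb1-ps8 and the span of Gm26740 that contains it lie on the same strand, the minus strand, so their reads cannot be told apart fully in these values. Hmgb1-ps8 and Gm5421 reached 1 FPKM in no HDAC2-labelled library, so the filter fixed their direction.

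Map7, a microtubule-associated protein that recruits kinesin, lies on the same side of Hdac2 (chr10:20148471-20281590). It was at 11.3, 9.17 and 9.40 FPKM in the HDAC1-labelled libraries and at 3.55, 3.50 and 3.75 FPKM in the HDAC2-labelled libraries. The groups did not overlap, with a log2 difference of 1.25 (SE 0.09, adjusted p 0.00218), and wild-type libraries read 8.62 to 8.73 FPKM. Map7, Hmgb1-ps8, Gm26740 and Gm5421 were called without any 1 library and with the replicate block.

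**Figure D3:**
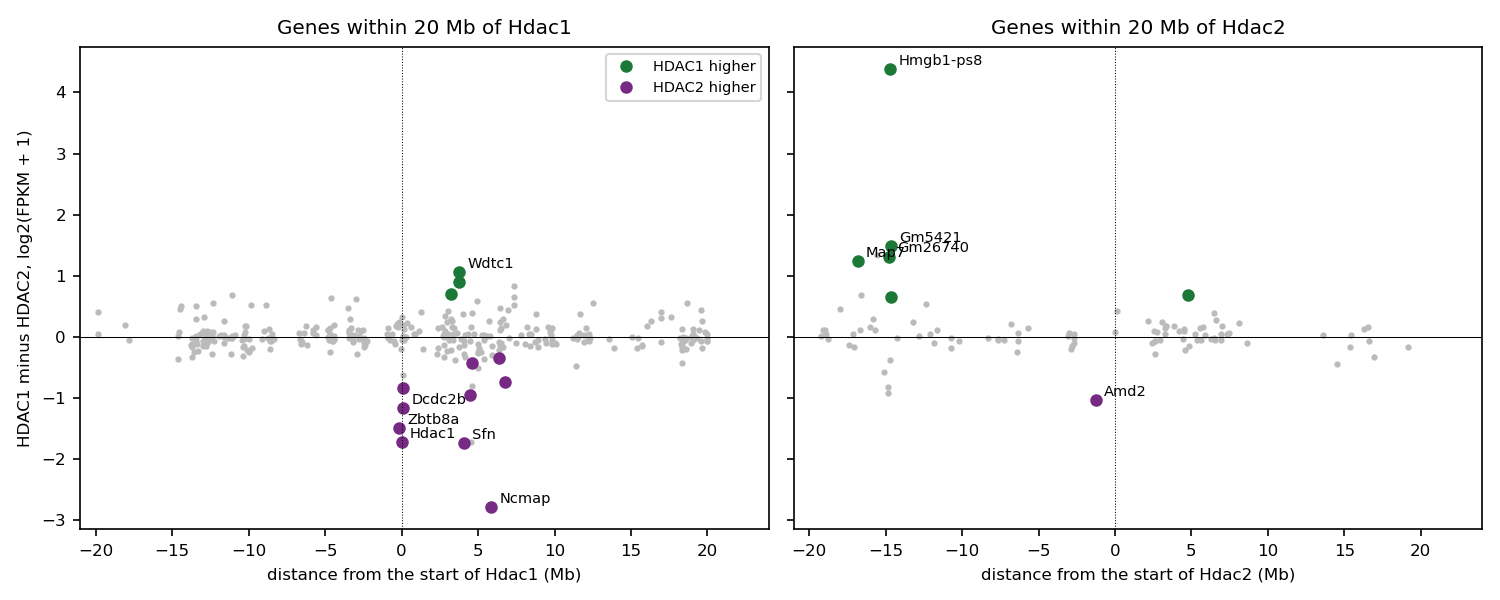
Differences (vertical axis, log2(FPKM + 1), HDAC1-labelled minus HDAC2-labelled) of the genes tested within 20 Mb of the start of Hdac1 (left) and of Hdac2 (right), by distance in Mb (horizontal axes); grey points were not called. The 13 called genes on the left lie from 0.16 Mb before to 6.77 Mb after the start of Hdac1, and 5 of the 7 on the right lie 14.6 to 16.8 Mb before the start of Hdac2.

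Outside both windows, 77 of 11218 genes were called (0.686%), 57 higher in the HDAC1-labelled and 20 in the HDAC2-labelled libraries. Among them were several genes that are near copies of a coding gene elsewhere in the genome. This group was chosen after its values were seen. In all, 278 genes tested were pseudogenes or had a clone-like symbol and matched the transcript of a coding gene at 95% identity or more over at least 50% of their length. Of these 13 were called (4.68%). Where the matched coding gene lay within 20 Mb of Hdac1, 7 of 14 were called, and all 7 were higher in the HDAC1-labelled libraries. Of these 7, Gm10093 and Gm10182 reached 1 FPKM in no HDAC2-labelled library, so the filter fixed their direction. Where the matched coding gene lay elsewhere, 6 of 264 were called (2.27%). Hmgb1-ps8 and Gm5421, described above inside the Hdac2 window, are among these 6.

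The sequences of such copies are close enough that a read can often fit either place. Windows of 120 bases are shown 5′ to 3′ from the GENCODE M21 transcripts on mm10, with capitals at the bases that differ between a copy and its coding gene. The first pair is Gm10093, at chr17:78491944-78492063 on the plus strand, and the coding sequence of Hdac1, which differ at 6 bases here and at 9 of 1444 aligned bases in all.
Gm10093: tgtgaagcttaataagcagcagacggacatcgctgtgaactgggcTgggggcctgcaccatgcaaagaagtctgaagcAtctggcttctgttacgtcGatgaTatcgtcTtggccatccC
Hdac1: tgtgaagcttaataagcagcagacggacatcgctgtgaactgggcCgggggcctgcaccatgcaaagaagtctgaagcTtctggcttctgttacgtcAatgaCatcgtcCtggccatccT

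Gm10282, at chr8:72305062-72305181 on the minus strand, shares its window with the start of the coding sequence of Hmgn2 without a difference, as over all 270 coding bases aligned.
Gm10282: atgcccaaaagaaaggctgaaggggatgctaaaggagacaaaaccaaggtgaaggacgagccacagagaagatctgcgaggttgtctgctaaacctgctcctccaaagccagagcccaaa
Hmgn2: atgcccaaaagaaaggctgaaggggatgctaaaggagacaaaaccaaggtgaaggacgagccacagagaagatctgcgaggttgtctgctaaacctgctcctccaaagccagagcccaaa

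Gm10093 was at 5.32, 6.32 and 6.40 FPKM in the HDAC1-labelled libraries and at 0.504, 0.421 and 0.483 FPKM in the HDAC2-labelled libraries (log2 difference 2.25, SE 0.09, adjusted p 0.000164). Hdac1 itself moved the opposite way. Wild-type libraries read Gm10093 at 0.518 to 0.859 FPKM. Whether the reads assigned to Gm10093 came from that locus or from Hdac1 transcripts cannot be told apart in these values.

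Hmgn2 showed the same arrangement with 3 copies. Gm10282 was at 62.1, 51.7 and 59.4 FPKM in the HDAC1-labelled libraries and at 15.5, 19.1 and 16.2 FPKM in the HDAC2-labelled libraries (log2 difference 1.71, SE 0.10, adjusted p 0.00081). Gm10357 was at 17.4, 11.9 and 18.5 FPKM and at 4.60, 4.55 and 3.62 FPKM (log2 difference 1.67, adjusted p 0.0103). Gm10182 was at 4.34, 2.57 and 4.97 FPKM and at 0.079, 0.0421 and 0.0378 FPKM (log2 difference 2.20, adjusted p 0.00591). All 3 were higher in the HDAC1-labelled libraries, in which Hmgn2 was lower. Whether reads assigned to these copies or to Hmgn2 came from the one or the other cannot be told apart in these values. The difference of Hmgn2 itself is therefore uncertain too. Gm10282, like Gm10093, was called without any 1 library, whereas Gm10182 was lost without HDAC1-labelled replicate 1, and Gm10357 without HDAC1-labelled replicate 1 or 3 or HDAC2-labelled replicate 1 or 3.

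Rpl11, a ribosomal protein gene on chromosome 4, has 2 called copies. Gm10036 was at 140, 204 and 212 FPKM in the HDAC1-labelled libraries and at 2.26, 3.53 and 2.71 FPKM in the HDAC2-labelled libraries (log2 difference 5.60, SE 0.19, adjusted p 7.76e-05), the largest called difference. Gm10288 was at 23.5, 30.5 and 28.6 FPKM and at 10.9, 8.43 and 9.74 FPKM (log2 difference 1.41, adjusted p 0.00544). Rpl11 itself was at 915, 933 and 971 FPKM and at 1044, 902 and 1074 FPKM, with a difference that did not pass (log2 difference -0.10, adjusted p 0.626). The remaining called copy with a match near Hdac1 was Gm11223, whose match is Stmn1, a microtubule-destabilising protein (log2 difference 1.80, adjusted p 0.00901, for the copy, and 0.59, adjusted p 0.148, for Stmn1). Gm10036 was called without any 1 library, Gm10288 was lost without HDAC1-labelled replicate 3, and Gm11223 without HDAC1-labelled replicate 1 or HDAC2-labelled replicate 1 or 3.

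On the opposite side, 2 copies on chromosome 6 were higher in the HDAC2-labelled libraries. Their matched coding genes are neighbours on chromosome 17. Atp6v0c-ps2 at chr6:37806086-37806205 on the plus strand differs from Atp6v0c, the proteolipid ring subunit of the vacuolar proton pump, at 1 base in this window and at 1 of 465 aligned bases.
Atp6v0c-ps2: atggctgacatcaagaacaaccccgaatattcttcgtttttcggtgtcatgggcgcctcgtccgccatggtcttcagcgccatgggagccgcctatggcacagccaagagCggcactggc
Atp6v0c: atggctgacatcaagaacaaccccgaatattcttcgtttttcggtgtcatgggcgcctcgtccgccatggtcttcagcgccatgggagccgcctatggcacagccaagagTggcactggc

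Gm9825 at chr6:7983124-7983243 on the minus strand differs from Rnps1, a splicing regulator, at 2 bases in this window and at 5 of 843 aligned bases.
Gm9825: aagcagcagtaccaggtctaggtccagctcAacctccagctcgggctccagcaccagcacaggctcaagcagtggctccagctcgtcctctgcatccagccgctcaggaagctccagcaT
Rnps1: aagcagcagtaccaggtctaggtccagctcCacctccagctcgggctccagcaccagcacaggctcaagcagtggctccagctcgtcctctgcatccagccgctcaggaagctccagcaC

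Atp6v0c-ps2 was at 0.707, 0.606 and 0.342 FPKM in the HDAC1-labelled libraries and at 60.9, 31.0 and 22.8 FPKM in the HDAC2-labelled libraries (log2 difference -4.55, SE 0.33, adjusted p 0.00267). Gm9825 was at 0.308, 0.264 and 0.231 FPKM and at 28.5, 13.04 and 9.64 FPKM (log2 difference -3.69, SE 0.34, adjusted p 0.00783). HDAC2-labelled replicate 1 was the highest of its group for both copies, and replicate 3 the lowest. The coding genes ran in the reverse order in these 3 libraries. Atp6v0c-ps2 was called without any 1 library, and Gm9825 was lost without HDAC1-labelled replicate 1 or 3. Both copies reached 1 FPKM in no HDAC1-labelled library, so the filter fixed their direction.

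Atp6v0c (chr17:24163866-24169702) was at 27.1, 25.9 and 28.4 FPKM in the HDAC1-labelled libraries and at 10.6, 17.9 and 21.0 FPKM in the HDAC2-labelled libraries (log2 difference 0.73, SE 0.22, adjusted p 0.169). Rnps1 (chr17:24414565-24425901) was at 80.1, 72.4 and 80.1 FPKM and at 28.4, 51.6 and 56.6 FPKM (log2 difference 0.81, SE 0.24, adjusted p 0.165). Neither coding gene overlapped between the groups, yet neither passed. Wild-type libraries read 26.8 to 30.5 FPKM for Atp6v0c and 81.5 to 98.5 FPKM for Rnps1, and at most 1.74 FPKM for either copy. The origin of the reads was not tested.

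**Figure D4:**
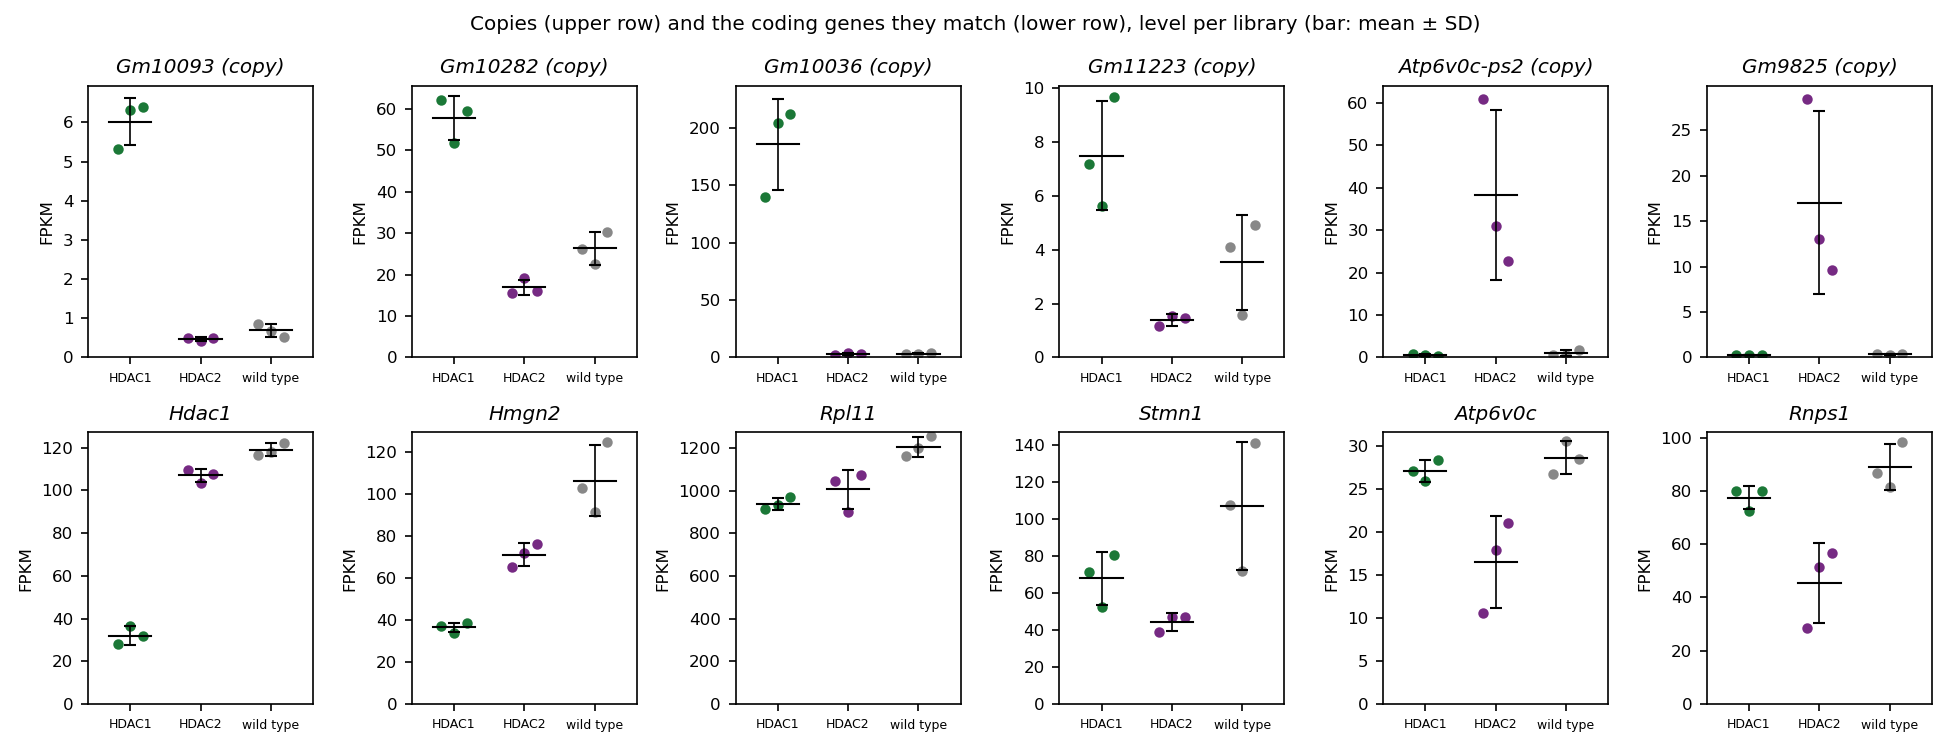
Levels in FPKM (vertical axes, from 0) of 6 copies (upper row) and of the coding genes they match (lower row) in HDAC1-labelled, HDAC2-labelled and wild-type libraries; points are replicates and bars the mean and SD. Gm10093 and Gm10282 are high where Hdac1 and Hmgn2 are low, and Atp6v0c-ps2 reaches 60.9 FPKM in the library with the lowest Atp6v0c, 10.6 FPKM.

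Among coding genes outside these regions, Acads showed the largest difference. Acads (chr5:115110299-115119346) encodes the short-chain acyl-CoA dehydrogenase of mitochondrial fatty acid oxidation. It was at 22.4, 19.05 and 23.3 FPKM in the HDAC1-labelled libraries and at 2.10, 2.31 and 2.50 FPKM in the HDAC2-labelled libraries (log2 difference 2.77, SE 0.09, adjusted p 7.76e-05). Wild-type libraries lay at 21.7 to 21.9 FPKM, within the range of the HDAC1-labelled libraries. Within 20 Mb of Acads, 3 of 287 genes tested were called (1.05%), Acads included, beside 0.827% elsewhere. Another of them, Gm15446 (chr5:109923400-109943936), was at 4.90, 6.18 and 6.70 FPKM in the HDAC1-labelled libraries. It was at 0.0538, 0.0382 and 0.0515 FPKM in the HDAC2-labelled libraries (log2 difference 2.72, SE 0.12, adjusted p 0.000199, limma). Wild-type libraries read Gm15446 at 5.40 to 5.72 FPKM. Gm15446 reached 1 FPKM in no HDAC2-labelled library, so the filter fixed its direction. The rest of the pathway did not follow: of 22 tested members of fatty acid oxidation, Acads alone was called (0.832% of all genes tested), and the median difference was 0.07. Hadha, the alpha subunit of the trifunctional protein of the same pathway, was at 41.4, 38.6 and 40.6 FPKM and at 35.2, 38.1 and 35.4 FPKM (log2 difference 0.15, adjusted p 0.244).

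Plxnd1, Spock2 and Mmp14 were higher in the HDAC1-labelled libraries. Plxnd1, a semaphorin receptor, was at 17.7, 14.5 and 16.7 FPKM in the HDAC1-labelled libraries and at 6.16, 7.27 and 6.77 FPKM in the HDAC2-labelled libraries (log2 difference 1.16, SE 0.09, adjusted p 0.00356). Spock2, a secreted proteoglycan, was at 17.8, 16.8 and 19.1 FPKM and at 7.75, 8.68 and 6.51 FPKM (log2 difference 1.13, SE 0.10, adjusted p 0.00674). Mmp14, a membrane-anchored matrix metalloproteinase, was at 7.45, 5.21 and 7.01 FPKM and at 2.20, 2.10 and 2.08 FPKM (log2 difference 1.26, SE 0.12, adjusted p 0.00903). None of the 3 genes overlapped between the groups, which the rule that named them required. Wild-type levels (7.50 to 8.54, 7.16 to 9.22 and 2.35 to 3.76 FPKM respectively) were nearer to the HDAC2-labelled libraries. Plxnd1 was called without any 1 library. Spock2 was lost without HDAC1-labelled replicate 1 or 3 (adjusted p up to 0.0551) and Mmp14 without HDAC1-labelled replicate 1 or 3 or HDAC2-labelled replicate 1 or 3 (up to 0.067).

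Ide, Apobec2 and Tspoap1 were higher in the HDAC1-labelled libraries as well. Ide, a metalloprotease that degrades insulin and amyloid peptides, was at 39.0, 34.2 and 36.1 FPKM in the HDAC1-labelled libraries and at 19.01, 19.01 and 18.5 FPKM in the HDAC2-labelled libraries (log2 difference 0.91, SE 0.06, adjusted p 0.00161). It was called without any 1 library, and wild-type libraries lay at 18.8 to 20.3 FPKM. Apobec2, a member of the family of cytidine deaminases, was at 7.78, 6.06 and 8.87 FPKM and at 2.10, 1.63 and 2.22 FPKM (log2 difference 1.51, SE 0.14, adjusted p 0.00783), and lost its call without HDAC1-labelled replicate 1 (adjusted p 0.0659). Tspoap1, an adaptor that binds RIM proteins and a mitochondrial benzodiazepine receptor, was at 10.98, 16.0 and 10.7 FPKM and at 5.27, 6.11 and 4.64 FPKM (log2 difference 1.08, SE 0.16, adjusted p 0.0443). These genes did not overlap between the groups, which the naming rule required.

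Cacnb3 and Anxa2 were also higher in the HDAC1-labelled libraries. Cacnb3, a regulatory subunit of voltage-gated calcium channels, was at 8.43, 6.52 and 9.13 FPKM in the HDAC1-labelled libraries and at 3.58, 4.001 and 2.99 FPKM in the HDAC2-labelled libraries (log2 difference 0.99, adjusted p 0.0347). Anxa2, a calcium-dependent membrane-binding protein, was at 33.7, 28.8 and 38.0 FPKM and at 16.5, 19.9 and 17.6 FPKM (log2 difference 0.86, adjusted p 0.0326). Tspoap1, Cacnb3 and Anxa2 lost their calls without HDAC1-labelled replicate 1 or 3 or HDAC2-labelled replicate 1 or 3, and Tspoap1 also without HDAC2-labelled replicate 2, with adjusted p values of up to 0.169. With the replicate block the adjusted p was 0.0882 for Cacnb3 and 0.0764 for Anxa2. Wild-type levels of both lay nearer to the HDAC1-labelled libraries, at 6.83 to 9.45 FPKM for Cacnb3 and 27.4 to 46.4 FPKM for Anxa2.

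Further coding genes away from chromosome 4 were higher in the HDAC2-labelled libraries. Ces2c, a carboxylesterase, was at 2.84, 3.17 and 2.39 FPKM in the HDAC1-labelled libraries and at 5.02, 4.93 and 5.41 FPKM in the HDAC2-labelled libraries (log2 difference -0.69, adjusted p 0.0342). Rnf43, a ubiquitin ligase that removes Wnt receptors from the cell surface, was at 11.4, 10.7 and 9.71 FPKM and at 16.3, 16.4 and 14.7 FPKM (log2 difference -0.53, adjusted p 0.0408). Saraf, a brake on store-operated calcium entry, was at 153, 162 and 150 FPKM and at 203, 197 and 195 FPKM (log2 difference -0.36, adjusted p 0.0458). No HDAC1-labelled library reached the lowest HDAC2-labelled library in any of the 3, and their wild-type means (2.25, 9.59 and 167 FPKM) lay nearer to the HDAC1-labelled libraries.

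Clec2i, a C-type lectin recognised by NK cell receptors, was at 19.2, 20.7 and 22.3 FPKM in the HDAC1-labelled libraries and at 31.8, 27.5 and 30.6 FPKM in the HDAC2-labelled libraries (log2 difference -0.51, adjusted p 0.0458). Snx9, a sorting nexin of endocytosis, had a log2 difference of -0.54 (adjusted p 0.0436), with 4.46 to 5.41 FPKM in the HDAC1-labelled and 7.19 to 7.96 FPKM in the HDAC2-labelled libraries. Adat2, a tRNA adenosine deaminase, had a log2 difference of -0.53 (adjusted p 0.0494), with 4.41 to 5.19 and 7.06 to 8.13 FPKM. The groups did not overlap for any of these genes, which the naming rule required. The calls of Ces2c, Rnf43, Saraf, Clec2i, Snx9 and Adat2 were each lost without HDAC1-labelled replicate 1 or 3 or HDAC2-labelled replicate 1 or 3, with adjusted p values of up to 0.191. Those of Rnf43, Clec2i, Snx9 and Adat2 were also lost without HDAC1-labelled replicate 2, and those of all but Clec2i without HDAC2-labelled replicate 2. With the replicate block none of the 6 passed, with adjusted p values from 0.05 for Rnf43 to 0.114 for Adat2.

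Gene lists place these differences beside the wider programs of Treg. Effector Treg are activated cells that enter tissues, and their list had 3 of 32 tested members called, all higher in the HDAC1-labelled libraries, beside 0.566% of all genes. The median difference was 0.25, and 26 members were above 0 (50% of all genes tested). Lgals1, which encodes the immunosuppressive lectin galectin-1, was at 212, 216 and 260 FPKM in the HDAC1-labelled libraries and at 131, 136 and 150 FPKM in the HDAC2-labelled libraries (log2 difference 0.72, SE 0.10, adjusted p 0.0342). Havcr2, the inhibitory receptor TIM-3, was at 5.40, 3.76 and 4.87 FPKM and at 1.67, 2.19 and 2.12 FPKM (log2 difference 0.92, SE 0.13, adjusted p 0.0414). The groups did not overlap for either of them.

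Wild-type libraries read Lgals1 at 222 to 303 FPKM, near the HDAC1-labelled libraries, and Havcr2 at 2.18 to 2.78 FPKM, near the HDAC2-labelled libraries. Without HDAC1-labelled replicate 1 or 3 or HDAC2-labelled replicate 1 or 3, 0 effector members were called, and with the replicate block only Lgals1 (adjusted p 0.0245) kept its call, with Havcr2 at 0.0925. Lgals1 and Havcr2 were also not called without HDAC2-labelled replicate 2. Other members were apart without passing. Ccl22, a chemokine that attracts CCR4+ cells, was at 8.997, 4.60 and 9.42 FPKM and at 2.60, 3.63 and 2.87 FPKM (log2 difference 1.06, adjusted p 0.109). Batf3, a partner of AP-1 factors, was at 5.15, 5.61 and 6.32 FPKM and at 1.76, 3.70 and 1.92 FPKM (log2 difference 0.99, adjusted p 0.0953).

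Lists of Treg identity and of resting T cells differed less. Of 25 tested genes of Treg identity, 0 were called by limma and 4 had an unadjusted p under 0.05 (17.3% of all genes tested). The median difference was -0.01. In the list of resting and central T cells 1 of 21 tested members was called (0.832% of all genes tested), and the median difference was -0.09. That member, Il6ra, the interleukin-6 receptor, was at 63.3, 65.5 and 56.6 FPKM in the HDAC1-labelled libraries and at 84.2, 81.2 and 86.4 FPKM in the HDAC2-labelled libraries (log2 difference -0.44, SE 0.07, adjusted p 0.0465). Its groups did not overlap, and its call was lost without HDAC1-labelled replicate 1 or 3 or any HDAC2-labelled replicate (adjusted p up to 0.2) and with the replicate block (0.105). Il7r, the survival cytokine receptor of resting T cells, was at 42.8, 49.7 and 40.0 FPKM and at 53.2, 57.2 and 58.8 FPKM (log2 difference -0.35, adjusted p 0.124).

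Proliferation genes were shifted as lists but rarely passed singly. All 36 tested genes of DNA replication had a difference above 0 (50% of all genes tested), with a median of 0.41. In 32 of them every HDAC1-labelled library lay above every HDAC2-labelled library (12.8% of all genes tested). By limma 0 were called, and 33 had an unadjusted p under 0.05 (17.3% of all genes tested). Of 39 tested genes of mitosis, 37 were above 0, with a median of 0.65, and 34 did not overlap between the groups in that direction. Birc5 was the 1 called member (0.832% of all genes tested). It encodes survivin of the chromosomal passenger complex, and was at 8.46, 6.81 and 10.3 FPKM in the HDAC1-labelled libraries and at 3.82, 4.34 and 4.27 FPKM in the HDAC2-labelled libraries (log2 difference 0.87, SE 0.14, adjusted p 0.0491). Wild-type libraries read Birc5 at 7.30 to 14.6 FPKM, nearer to the HDAC1-labelled libraries.

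Counts in these lists depended strongly on the libraries used. HDAC1-labelled replicate 2 was the lowest of its group for 35 of 36 replication and 37 of 39 mitosis genes, and without it 17 mitosis and 9 replication genes were called. Without HDAC1-labelled replicate 1 or 3 or HDAC2-labelled replicate 1 or 3 there were 0 in either list, and likewise with the replicate block, where Birc5 had an adjusted p of 0.0764. Birc5 was likewise not called without HDAC2-labelled replicate 2. With both replicates numbered 2 left out, a choice made after seeing the data, 33 mitosis and 17 replication genes were called, all higher in the HDAC1-labelled libraries. HDAC2-labelled replicate 2 had the highest summed level of its group in both lists (571 FPKM for mitosis, 653 FPKM for replication). That choice thus removed the library of each group nearest to the other group. It widens the gap between the groups, so these counts are no added support for a difference. Mki67, the Ki-67 proliferation antigen, was at 24.2, 17.8 and 25.9 FPKM in the HDAC1-labelled and at 12.01, 14.8 and 12.4 FPKM in the HDAC2-labelled libraries (log2 difference 0.74, SE 0.15, adjusted p 0.0905). Rrm2, a subunit of ribonucleotide reductase, was at 44.0, 33.4 and 47.0 FPKM and at 20.1, 24.8 and 25.4 FPKM (log2 difference 0.79, SE 0.14, adjusted p 0.0726). Neither overlapped between the groups, and HDAC1-labelled replicate 2 was the lowest of its group for both.

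Canonical histone genes are transcribed mainly in S phase, and 3 of the 28 tested were called, all higher in the HDAC1-labelled libraries (0.566% of all genes tested). They were chosen after their values were seen. The median difference was 0.49, and 26 of 28 were above 0 (50% of all genes tested). Some, such as Hist1h3h, Hist1h3e, Hist1h2ab and Hist1h2bk, reached 1 FPKM in no HDAC2-labelled library. These entered the test through the HDAC1-labelled libraries alone, so the filter fixed their direction. Hist1h1e, a linker histone, was at 4.83, 4.46 and 3.89 FPKM in the HDAC1-labelled libraries and at 1.80, 2.53 and 2.11 FPKM in the HDAC2-labelled libraries (log2 difference 0.78, adjusted p 0.0431). Hist1h3h was at 2.67, 2.63 and 2.71 FPKM and at 0.422, 0.787 and 0.909 FPKM (log2 difference 1.12, adjusted p 0.0213). Hist1h3e, the other called histone H3 gene, was at 2.10, 1.29 and 1.58 FPKM and at 0.311, 0.332 and 0.199 FPKM (log2 difference 1.04, adjusted p 0.0342). The groups did not overlap for any of the 3, but none was called with the replicate block or without HDAC1-labelled replicate 1 or 3 or HDAC2-labelled replicate 3. Hist1h1e and Hist1h3e were also lost without HDAC2-labelled replicate 1, Hist1h1e without HDAC1-labelled replicate 2 and Hist1h3e without HDAC2-labelled replicate 2. Histone genes of the same family resemble each other in sequence, which was not measured here. The split of reads within a family is therefore uncertain.

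In glycolysis, 1 of 21 tested members was called (0.832% of all genes tested), and the median difference was 0.09. Tpi1, triosephosphate isomerase, was at 74.9, 68.7 and 82.1 FPKM in the HDAC1-labelled libraries and at 43.8, 51.9 and 49.1 FPKM in the HDAC2-labelled libraries (log2 difference 0.63, SE 0.09, adjusted p 0.0387). It did not overlap between the groups. Its call was lost without HDAC1-labelled replicate 1 or 3 or HDAC2-labelled replicate 1 or 3 (adjusted p up to 0.156) and with the replicate block (0.0778). The glucose transporter gene Slc2a3 was at 15.9, 16.1 and 15.3 FPKM and at 19.3, 20.5 and 19.6 FPKM, with a difference that did not pass (log2 difference -0.31, adjusted p 0.0544).

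Nuclear genes of oxidative phosphorylation had 0 of 47 tested members called by limma, 15 with an unadjusted p under 0.05, and a median difference of 0.17, with 44 above 0. Over all genes tested, 17.3% had an unadjusted p under 0.05 and 50% a difference above 0. The mitochondrially encoded subunits had 0 of 12 called, 0 with an unadjusted p under 0.05, and a median of -0.05. Atp5l, a subunit of ATP synthase, was at 155, 160 and 157 FPKM in the HDAC1-labelled libraries and at 138, 127 and 132 FPKM in the HDAC2-labelled libraries (log2 difference 0.25, adjusted p 0.0991). The proteasome list had 0 of 29 called, 7 with an unadjusted p under 0.05, a median of 0.11 and all 29 above 0. The nuclear-encoded and proteasome members therefore lay mostly on the same side without any of them passing.

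Among inhibitors of the cell cycle and targets of p53, 1 of 22 tested members was called (0.832% of all genes tested), and the median difference was 0.05. Gadd45b, a stress-response gene, was at 49.3, 47.6 and 51.0 FPKM in the HDAC1-labelled libraries and at 34.6, 37.9 and 38.8 FPKM in the HDAC2-labelled libraries (log2 difference 0.40, SE 0.06, adjusted p 0.0454). It did not overlap between the groups, but its adjusted p exceeded 0.05 without any 1 of the 6 libraries (up to 0.168) and with the replicate block (0.0915).

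**Figure D5:**
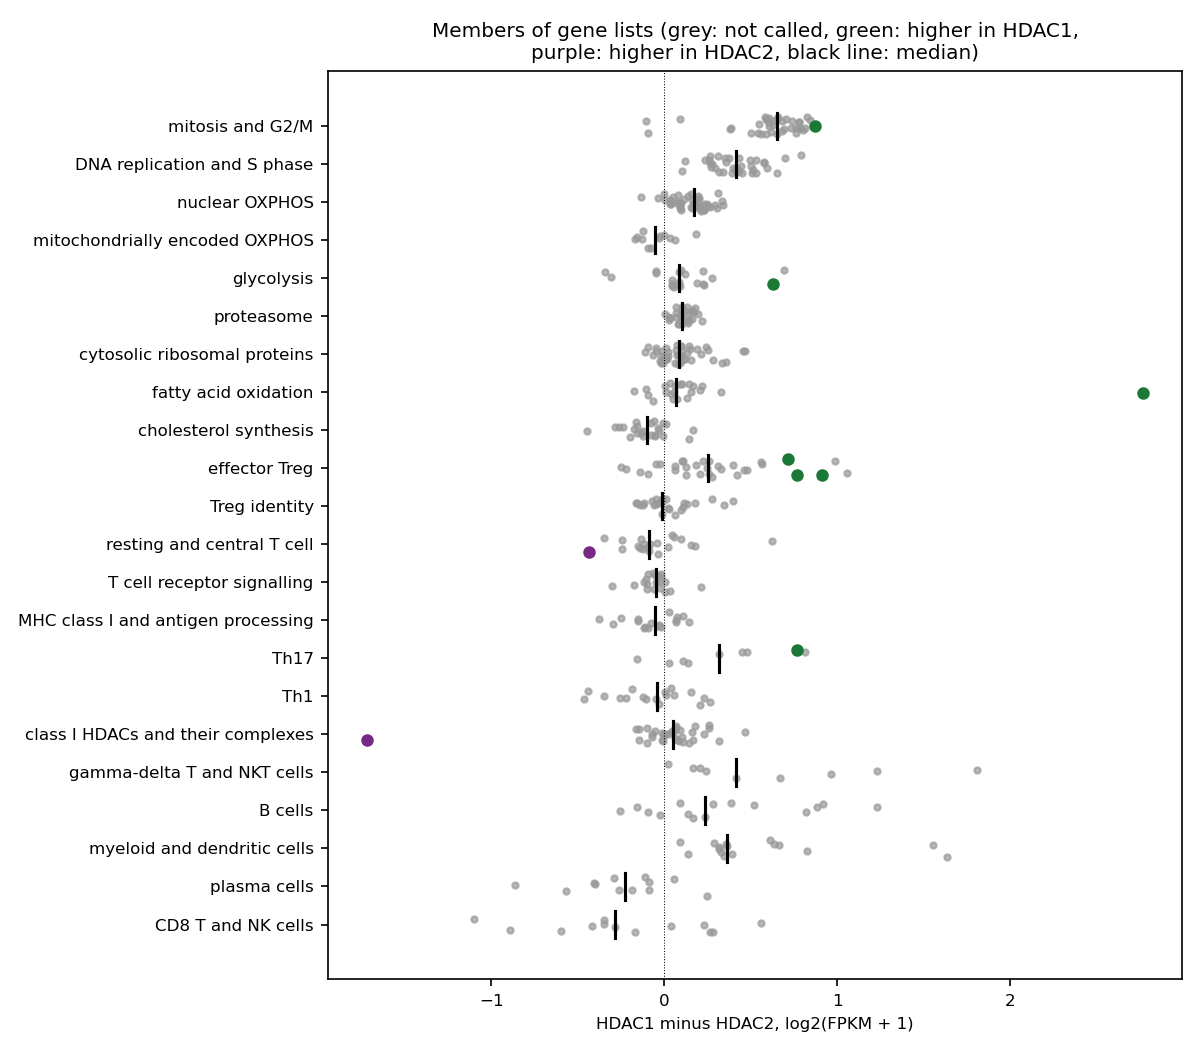
Differences of single genes (points; horizontal axis, log2(FPKM + 1), HDAC1-labelled minus HDAC2-labelled) in 22 gene lists, with the median of each list as a black line; green and purple points were called. The median of mitosis (0.65) lies farthest to the right, followed by gamma-delta T and NKT cells (0.42) and DNA replication (0.41), while the median of Treg identity lies at -0.01.

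Markers of other cell types were tested in the same fit, and 0 members of these lists were called by limma. An unadjusted p under 0.05 was reached by 5 gamma-delta T and NKT, 3 myeloid, 5 B cell, 0 plasma cell and 4 CD8 T and NK cell markers. The share over all genes tested was 17.3%. The median difference was 0.42 over 9 tested gamma-delta T and NKT markers, 0.36 over 16 of myeloid cells, 0.23 over 15 of B cells, -0.23 over 12 of plasma cells and -0.29 over 13 of CD8 T and NK cells. Summed levels of the gamma-delta T and NKT list were 160 to 191 FPKM in the HDAC1-labelled and 108 to 150 FPKM in the HDAC2-labelled libraries, without overlap. Summed myeloid markers were 218 to 498 FPKM and 108 to 288 FPKM, with overlap. Cd163l1, a scavenger receptor marker of gamma-delta T cells, was at 26.1, 21.0 and 14.1 FPKM in the HDAC1-labelled libraries and at 4.27, 10.2 and 2.52 FPKM in the HDAC2-labelled libraries (log2 difference 1.81, adjusted p 0.112). The part of other cell types and of the gap in depth in the differences was not tested.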

How the data were processed

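Gene values of the 6 libraries labelled HDAC1 or HDAC2 were taken from the table that the authors deposited. Per the submitters' processing notes, STAR and HTSeq were used with build mm10; versions, strand setting and annotation release are not given in the sources used here. The deposited values were treated as FPKM, which neither the labels nor the table states. The unit was read from the values, whose steps multiplied by the annotated exon length give the depth. Counting error at that depth adds to the spread of weakly read genes.

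The members of the comparison, the 40 gene lists and the tests were chosen with earlier results of these data known. The scale was log2(FPKM + 1), and genes with at least 1 FPKM in 3 or more of the 6 libraries entered a limma 3.58.1 fit (R 4.3.3) with 1 mean per group and a trend of variance on level (4 residual degrees of freedom). A gene below 1 FPKM in every library of 1 group entered through the other group alone, which fixed its direction. P-values were adjusted by Benjamini-Hochberg over all 11653 genes, and a gene was called under 0.05. The fit was tested on simulated data. Where the plan allowed for counts or normalized values, the form for normalized values was used.

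Genes were named by 4 rules: Hdac1, Hdac2, Hdac3 and Hdac8; the 15 largest called differences each way with at least 5 FPKM in the higher group and no overlap, without clone-like symbols, segments of immunoglobulin or T cell receptor genes, ribosomal pseudogenes and Y-linked genes; up to 4 called members of each list, or up to 2 as values; and up to 6 called genes within 20 Mb of Hdac1 and of Hdac2. For genes named by the second rule, the lack of overlap was a condition of being named and is no support beyond the test. Copies, histone genes and further members named for their role were chosen after their values were seen. Some genes that the rules select are left out of the text. Copies were matched to coding transcripts of GENCODE M21 with blastn 2.17.0 and aligned with Biopython 1.88.

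The replicate numbers are shared between the groups. Deviations from the group means of same-numbered libraries correlated across genes at 0.223, 0.444 and 0.156 for numbers 1, 2 and 3. The labels do not say what a number marks. The reported fit took the libraries as unpaired, and pairing by number was run only as the replicate block. Of the unlike-numbered pairs, HDAC1-labelled replicate 3 and HDAC2-labelled replicate 1 correlated at 0.344, above the same-numbered values for 1 and 3, and the other 5 were below 0. Alternatives covered filters, pseudocount, scaling, the libraries in the fit, variance moderation, the replicate block, length and GC content, and each library left out.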

Additional observations from a re-analysis of the deposited data

How the results depend on the processing

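The count of 97 called genes was 52 with no filter on low values, 34 with a mean of at least 5 FPKM, 162 with robust variance moderation, 178 with all 18 libraries in the fit and 281 with the 15 deletion libraries. It was 51 with the replicate block and 336 with both replicates numbered 2 left out, a setting added after seeing the data. Leaving out 1 library at a time gave 23 to 140. Other settings (RLE scaling, scaling to a fixed library total, pseudocount 0.1, the filter over 18 libraries, no variance trend, length and GC removed, alone or with the block) stayed within 1.5 times of 97. The share of calls higher in the HDAC1-labelled libraries was 68.0% in the reported fit, 79.7% with the 15 deletion libraries and 79.2% without the replicates numbered 2. None of the 97 genes changed sign in the 20 alternatives, and 21 were called in every alternative that tested them. Hdac1 stayed called and Hdac2 stayed uncalled in all of them; with the replicate block the calls of named genes that changed are given beside them. Among genes that were not called, Hdac8 (-0.01) changed sign in 4 of the 6 fits with 1 library left out, which ran from -0.115 to 0.064. Hba-a2 (0.21) did so in 2 of them, which ran from -0.368 to 0.707, and was -0.033 without the replicates numbered 2. Alas2 (-0.19) did so in 3, which ran from -0.802 to 0.162. The cause was not tested.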

Other observations

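Segments of the T cell receptor beta chain were among the genes higher in the HDAC2-labelled libraries; they were chosen after their values were seen. Trbv2 was at 70.1, 73.2 and 72.0 FPKM in the HDAC1-labelled libraries and at 93.3, 88.7 and 93.4 FPKM in the HDAC2-labelled libraries (log2 difference -0.35, SE 0.05, adjusted p 0.0364, limma). Trbv13-1 was at 77.1, 71.3 and 72.0 FPKM and at 94.2, 92.2 and 95.6 FPKM (log2 difference -0.35, adjusted p 0.0436). Trbj1-1 was at 52.5, 50.9 and 43.0 FPKM and at 71.3, 70.3 and 70.9 FPKM (log2 difference -0.53, adjusted p 0.0443). The groups did not overlap for any of the 3. With the replicate block none of them was called, nor without HDAC1-labelled replicate 1, 2 or 3 or HDAC2-labelled replicate 1 or 3, and Trbv13-1 and Trbj1-1 not without HDAC2-labelled replicate 2 either. Traj39, a joining segment of the alpha chain, went the other way, at 6.09, 5.97 and 7.57 FPKM and at 2.75, 1.47 and 1.32 FPKM (log2 difference 1.43, adjusted p 0.0342), was not called with the replicate block, and was called with 1 library left out only when that was HDAC2-labelled replicate 1.

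Lists of the T cell receptor pathway, of MHC class I and of cholesterol synthesis had 0 members called by limma. Over all genes tested, 17.3% had an unadjusted p under 0.05 and 50% a difference above 0. The median difference of 20 tested genes of T cell receptor signalling was -0.05, with 3 at an unadjusted p under 0.05 and 16 below 0. Lat, the scaffold of proximal T cell receptor signalling, was at 343, 393 and 384 FPKM in the HDAC1-labelled libraries and at 489, 423 and 468 FPKM in the HDAC2-labelled libraries (log2 difference -0.30, adjusted p 0.153). MHC class I and antigen processing had a median of -0.05 over 18 tested members, with 5 at an unadjusted p under 0.05. The summed level of that list was 8411 to 8710 FPKM and 9407 to 9530 FPKM, without overlap. Cholesterol synthesis had a median of -0.10 over 24 tested members, with 5 at an unadjusted p under 0.05 and 21 below 0.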
